A study of Caenorhabditis elegans with 2 samples.

Results

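Small nuclear RNA (snRNA) genes, with the spliced leader genes counted among them, were examined for peaks of MADF-5, which carries the Myb-like DNA-binding domain called MADF. The genes were all those that the Ensembl annotation of the Caenorhabditis elegans assembly WBcel235 (ce11) gives the biotype snRNA, which came to 129 of 31563 genes with piRNA genes left out. They were chosen by annotation and not by a measured value. A gene was called bound when its start lay within 500 bp of a peak summit of the conservative thresholded list. The background consisted of all genes whose start lay that close to a summit of the ranked list from which the thresholded list was cut.

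The study measured MADF-5 by chromatin immunoprecipitation followed by sequencing. Whole worms of strain OP436 were synchronised by L1 starvation and taken as L4 larvae at 50 hours. The strain carries the transgene wgIs436, in which MADF-5 bears EGFP and 3xFLAG tags on a fosmid, together with unc-119(+) in the background unc-119(tm4063), and the antibody was raised against GFP. There were 2 biological replicates of this 1 group and no second condition, and the peaks describe a tagged protein made from a transgene in mixed tissues. The control library named in the labels was not analysed here. The conservative list held 813 peaks out of 116935 ranked peaks, and the own lists of replicates 1 and 2 held 411 and 254 peaks. No source used here gives read totals, so depth is unknown.

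snRNAs are the RNA parts of the spliceosome, the machine that removes introns. U1 pairs with the 5′ splice site, U2 with the branch point, and U6, which arrives bound to U4 and with U5, replaces U1 at the 5′ splice site. In nematodes the spliced leader RNAs donate a short leader to the 5′ ends of many messenger RNAs: SL1, from the sls-1 genes, mostly to the first gene of an operon or to single genes, and SL2 and its variants, from the sls-2 genes, to the downstream genes of operons. U6 genes are transcribed by RNA polymerase III from promoters that lie before the gene, unlike tRNA genes, whose promoter elements lie inside the gene. The other kinds are transcribed by RNA polymerase II, and in animals both groups use the SNAPc factor that binds a proximal sequence element.

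Genes on which the results turn are shown as written in the genome, 5′ to 3′ on the gene's own strand, from the RefSeq copy of WBcel235. The U1 gene sup-6 at chrII:12944803-12944967 on the minus strand had the highest signal of the bound genes, and its capitals mark the bases that pair with the 5′ splice site. The spliced leader genes sls-2.8, at chrIII:12250465-12250575 on the plus strand, and sls-1.10, at chrV:17120694-17120791 on the minus strand, stand for the family with bound members and the family with none.
sup-6: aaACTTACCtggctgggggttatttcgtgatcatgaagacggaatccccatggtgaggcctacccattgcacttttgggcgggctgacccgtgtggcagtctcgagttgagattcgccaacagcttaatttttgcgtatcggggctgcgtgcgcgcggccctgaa
sls-2.8: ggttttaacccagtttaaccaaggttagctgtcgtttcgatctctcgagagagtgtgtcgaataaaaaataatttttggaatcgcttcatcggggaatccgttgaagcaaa
sls-1.10: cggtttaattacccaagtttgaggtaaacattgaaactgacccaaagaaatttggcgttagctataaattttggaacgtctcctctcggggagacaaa

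Kinds were assigned from gene names where these say the kind, and otherwise from sequence, by joining genes at 70% identity or more and reading a short signature of each kind. This gave 13 U1, 20 U2, 5 U4, 12 U5, 24 U6, 12 sls-1 and 19 sls-2 genes. There were also 10 genes for SmY RNAs, nematode RNAs linked to trans-splicing, and 14 genes left over, which carry the snRNA biotype but matched no kind. The members are not independent of one another in sequence. One U6 sequence of 102 bp is shared, base for base, by 14 of the 24 U6 genes, and 44 of the 129 genes have an identical copy among the others.

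Of the 107 snRNA genes in the background, 11 were bound (10.3%, Wilson 95% interval 5.84 to 17.5, which covers counting error only), where 3.82% of all 25103 background genes were bound. The bound genes were 3 U6, 3 U1 and 3 sls-2 genes, with 1 U4 and 1 U2 gene. The shares were 3 of 13 for U1 (23.1%, 8.18 to 50.3), 3 of 18 for sls-2 (16.7%, 5.84 to 39.2), 3 of 19 for U6 (15.8%, 5.52 to 37.6), 1 of 5 for U4 (20%) and 1 of 16 for U2 (6.25%). The intervals of these kinds overlap, so the shares give no order among them. None of 12 U5 genes was bound (0%, upper limit 24.2), nor were any of 7 SmY genes (upper limit 35.4), 5 sls-1 genes (43.4) or 12 genes of no assigned kind (24.2). Set beside other small RNA genes, the share of snRNA genes bound lay below that of tRNA genes, where 288 of 568 (50.7%) were bound, and that of snoRNA genes, with 59 of 315 (18.7%).

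**Figure D1:**
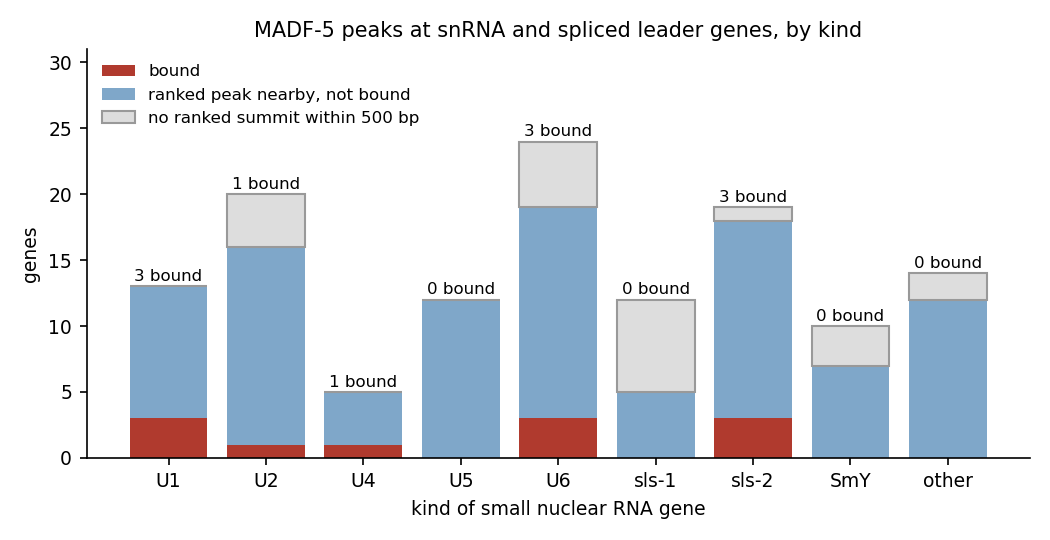
Number of genes of each kind, split into bound genes (red), genes with a ranked summit within 500 bp but not bound (blue) and genes with none (grey). The 11 bound genes are spread over 5 kinds, and U5, sls-1, SmY and the genes of no assigned kind have 0.

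The other 22 snRNA genes had no ranked summit within 500 bp and so could not be called. They were 7 sls-1, 5 U6, 4 U2, 3 SmY and 1 sls-2 gene, with 2 of no assigned kind. Repetition of sequence went with this for sls-1: the 101 bp centred on the start occurred once in the genome for 109 of the 129 genes but for 0 of the 12 sls-1 genes, and the part of mapping in their result was not tested. The 5 U6 genes had unique windows, but these take in bases of the gene itself, which some of them share with other U6 genes. Many snRNA genes overlap other genes: 37 of the 129 lie inside a protein-coding gene on its strand and 26 on the opposite strand. Of the 11 bound genes, 5 lay inside a protein-coding gene, each on the strand of its host.

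At the 3 bound U6 genes the summits lay between 0 and 43 bp from the start, on either side. W05B2.8 (WBGene00014543), at chrIII:10989679-10989780 on the plus strand inside dhc-4, had a peak at chrIII:10989567-10989790 with a signal of 130 in the whole-series list, 71.4 in replicate 1 and 61.5 in replicate 2. Signal is the value that the authors' caller gave each peak, on a scale that is not stated and is not shared between lists, so these values cannot be subtracted. The score, with which the authors rank peaks by irreproducible discovery rate (IDR) and which runs to at most 1000, was 1000 in each of the 3 lists. The summit fell on the first base of the gene in the whole-series list and in replicate 1, and 2 bp before it in replicate 2. C28A5.7 (WBGene00014266), inside C28A5.6, had a signal of 80.2 at chrIII:4426872-4427095, with 40.3 in replicate 1 and 40.1 in replicate 2. Its summits lay 28 or 29 bp before the start in each list. Y9C9A.111 (WBGene00235247), inside Y9C9A.8, had a signal of 67.7 at chrIV:4930885-4931108, with 32.2 in replicate 1 and 31.4 in replicate 2. Its summit lay 43 bp into the gene in the whole-series list, 44 bp in replicate 1 and 5 bp before the start in replicate 2.

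All 3 bound U6 genes carry this same 102-bp sequence, as do many that were not bound, so the transcribed sequence does not separate them. The 85 bp before the start do differ: they were 58.8% identical between W05B2.8 and C28A5.7, 57.6% between W05B2.8 and Y9C9A.111, and 62.4% between C28A5.7 and Y9C9A.111. The window of C28A5.7 was closer to those of K09C6.12 (84.7%) and R07E5.16 (81.2%), which were not bound. These identities thus do not separate bound from other genes either. The windows are printed here for the bound genes and for 3 genes that share the transcribed sequence and were not bound. These are R07E5.16, which had the highest signal among them, K09B11.14, from a cluster of U6 genes, and F54C8.8. The last pair was chosen after the values were seen. Capitals mark 2 motifs, read from these windows after they were seen: TATATAA and CGNAACC, each sought on both strands and, for the capitals, on the gene's strand.
W05B2.8, chrIII:10989594-10989678, plus strand: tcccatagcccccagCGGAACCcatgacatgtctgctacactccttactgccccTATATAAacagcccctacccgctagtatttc
C28A5.7, chrIII:4426956-4427040, minus strand: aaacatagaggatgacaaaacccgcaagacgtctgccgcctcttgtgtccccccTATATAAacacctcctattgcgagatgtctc
Y9C9A.111, chrIV:4930869-4930953, plus strand: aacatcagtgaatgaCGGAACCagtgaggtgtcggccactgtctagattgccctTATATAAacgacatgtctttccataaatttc
R07E5.16, chrIII:4414100-4414184, plus strand: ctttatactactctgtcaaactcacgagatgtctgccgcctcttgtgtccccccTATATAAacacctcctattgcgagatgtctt
K09B11.14, chrIV:13440817-13440901, plus strand: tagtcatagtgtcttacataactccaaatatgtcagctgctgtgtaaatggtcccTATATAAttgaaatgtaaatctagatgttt
F54C8.8, chrIII:9445826-9445910, plus strand: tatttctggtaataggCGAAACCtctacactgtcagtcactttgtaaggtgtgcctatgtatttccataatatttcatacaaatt

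TATATAA occurred before 15 of the 24 U6 genes (62.5%), beginning at position -31 or -30 from the start, and before all 3 bound ones. Of the windows before all 31523 gene starts, 3.17% hold it on either strand. It occurred before 1 U2 gene and 2 genes of no assigned kind, and before none of the U1, U4, U5, sls-1, sls-2 or SmY genes. A TATA box at this distance is a known feature of polymerase III promoters of U6 genes in animals. The match describes the letters alone. Of the U6 genes in the background, 3 of 13 with it and 0 of 6 without it were bound, and these counts were not tested.

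Among the other U6 genes, R07E5.16 came nearest to the threshold. It had a signal of 59.5 and a score of 801 in the whole-series ranking, where the lowest score of the thresholded list is 830, and its summit lay 15 bp into the gene. It had a signal of 35.9 in replicate 1 and 25.2 in replicate 2, with summits 6 and 15 bp into the gene, and it was bound in the other whole-series list. Its upstream window was 81.2% identical to that of C28A5.7. K09C6.12, named after its values were seen, was in the own list of replicate 1 with a signal of 48.1 and a score of 1000 at 3 bp before its start. In replicate 2 its highest ranked signal was 10.6 with a score of 50, at 178 bp from the start and past the 3′ end. In the whole-series ranking it had a signal of 49.1 at 10 bp into the gene, but a score of 103. It was bound in neither whole-series thresholded list. A tight cluster of 6 U6 genes inside mam-3, at chrIV:13435785-13443846, had 0 bound, and its highest ranked signals lay between 7.05 and 22.1.

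Of the bound U1 genes, sup-6 had its summit past the 3′ end, and T08G5.11 and F08H9.10 had theirs inside the gene. The U1 gene sup-6 (WBGene00006315) lies inside F58G1.7. Its peak at chrII:12944611-12944834 had a signal of 133, with 77.2 in replicate 1 and 55.8 in replicate 2, and a score past the threshold in all 3 lists. The summit lay 244 bp from the start, 80 bp past the 3′ end of the gene, and 238 and 240 bp from the start in the replicates. T08G5.11 (WBGene00014511) had a signal of 57.1 at chrV:14028510-14028733, with 30.8 in replicate 1 and 29.9 in replicate 2, and its summit lay 13 bp into the gene. F08H9.10 (WBGene00014316) had a signal of 60.5 at chrV:14463188-14463411, with 29.2 in replicate 1 and 28.9 in replicate 2. Its summit lay 52 bp into the gene, but also 38 bp from the start of hsp-16.20, a gene of the small heat shock protein family, so the peak cannot be assigned to the U1 gene alone. T08G5.11 and F08H9.10 stood in neither replicate's own list.

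The nearest U1 gene to the threshold was T27E4.11, with a signal of 65.5 and a score of 821, and it was bound in the other whole-series list. Its summit lay 220 bp from the start and so past the 3′ end, as at sup-6. sup-39, a U1 gene known like sup-6 from mutations that suppress splice-site defects, had a signal of 48.9 and a score of 653 with a summit 266 bp from its start. Its replicate values were 26.7 at 265 bp and 24.5 at 242 bp, and the miRNA gene mir-1831, which also carries the snRNA biotype here, shares this peak. Over the 13 U1 genes the summit of highest signal lay past the 3′ end in 7, inside the gene in 4 and before it in 2. The 7 are not all separate peaks, because T27E4.10, T27E4.22 and T27E4.12 share the same one. Its signal was 21.4 at a score of 45, where the median signal for all background genes was 25.9. The same count over all genes was not made. The windows before the 3 bound U1 genes and before T27E4.11 and sup-39 are printed with CGNAACC in capitals.
sup-6, chrII:12944968-12945052, minus strand: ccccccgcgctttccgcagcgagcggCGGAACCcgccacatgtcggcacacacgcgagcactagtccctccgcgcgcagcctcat
F08H9.10, chrV:14463353-14463437, minus strand: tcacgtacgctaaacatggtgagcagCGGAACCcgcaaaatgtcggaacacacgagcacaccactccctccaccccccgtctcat
T08G5.11, chrV:14028636-14028720, minus strand: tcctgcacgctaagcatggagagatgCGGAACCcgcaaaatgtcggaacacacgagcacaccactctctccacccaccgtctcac
T27E4.11, chrV:9087022-9087106, minus strand: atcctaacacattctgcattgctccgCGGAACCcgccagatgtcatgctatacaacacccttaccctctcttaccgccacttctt
sup-39, chrII:6968559-6968643, minus strand: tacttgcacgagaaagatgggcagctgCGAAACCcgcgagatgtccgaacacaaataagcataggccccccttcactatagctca

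CGNAACC occurred before 9 of 13 U1 genes, 11 of 12 U5 genes, 8 of 10 SmY genes, 10 of 19 sls-2 genes, 9 of 24 U6 genes, 2 of 5 U4 genes and 2 of the 14 genes of no assigned kind, and before 0 of 20 U2 and 0 of 12 sls-1 genes. Of the windows before all gene starts, 1.67% hold it on either strand. It began at a median position of -59 at U1 genes, -61 at U5 genes, -62 at sls-2 genes and -70 at U6 genes. Of the 44 background genes with it, 6 were bound, and of the 63 without it, 5 were. Among U1 genes 3 of 9 with it and 0 of 4 without it were bound, among U6 genes 2 of 5 with it and 1 of 14 without it. The counts went the other way among sls-2 genes, with 1 of 9 with it and 2 of 9 without it. They did so too among U4 genes, with 0 of 2 and 1 of 3. U5 genes, which nearly all had it, had 0 bound. These counts are small and were not tested.

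**Figure D2:**
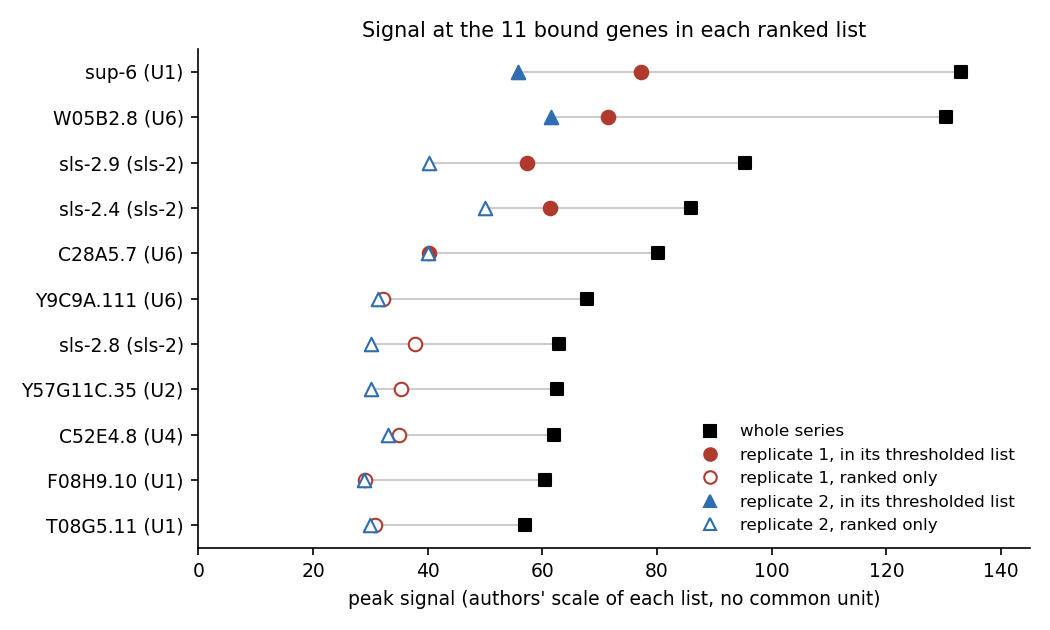
Signal (horizontal axis, authors' scale of each list) of the peak at each of the 11 bound genes in the whole-series list (squares) and of the ranked peak of highest signal within 500 bp in replicates 1 (circles) and 2 (triangles), filled where the peak is in the replicate's own thresholded list. The genes sup-6 and W05B2.8 are filled in both replicates, and 6 genes are open in both.

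The sls-2 genes, which make SL2 and its variants, had 3 bound members, each with a different arrangement. sls-2.9 (WBGene00004841) had a signal of 95.3 at chrI:13297636-13297859, with 57.3 in replicate 1 and 40.2 in replicate 2. Its summit lay 129 bp before the start, but 3 bp from the start of the tRNA gene M01E5.t1, so that this peak lies at a tRNA gene. sls-2.9 was the only snRNA gene with a tRNA gene start within 500 bp of its own, and 3 had one within 1000 bp. sls-2.4 (WBGene00004836) had a signal of 85.9 at chrI:4172316-4172539, with 61.3 in replicate 1 and 50.1 in replicate 2. Its summit lay 113 bp past the 3′ end in the whole-series list, 222 bp from the start, as in replicate 2, while in replicate 1 the summit of highest signal lay 106 bp into the gene. The nearest gene start to that summit, at 122 bp, was that of R12E2.18, annotated as ncRNA.

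sls-2.8 (WBGene00004840), printed above, had a signal of 62.9 at chrIII:12250337-12250560, with 37.8 in replicate 1 and 30.1 in replicate 2. Its summit lay 16 bp before the start, 16 bp in replicate 1 and 25 bp in replicate 2, and the starts of tim-1 and Y75B8A.23 lay 285 and 211 bp from it. sls-2.8 stood in neither replicate's own list and was not bound in the other whole-series list. Of the sls-2 genes that were not bound, sls-2.12 had the highest score, 712 with a signal of 47.8, and sls-2.1 the highest signal, 52.0 with a score of 275. sls-2.1 and sls-2.2, the latter named after its values were seen, were in the own list of replicate 1, with signals of 43.7 at 23 bp and 50.1 at 18 bp before the start. In replicate 2 their summits of highest signal lay elsewhere, 253 and 248 bp from the start. Over the 18 sls-2 genes in the background, the summit of highest signal lay past the 3′ end in 13. Of these, sls-2.2 and sls-2.3 share the same peak. The signals at sls-2.6, sls-2.7 and sls-2.10 were 21.1, 24.4 and 15.2, below the median of 25.9 for all background genes. The same count over all genes was not made.

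The U4 and U2 genes had 1 bound member each. The U4 gene C52E4.8 (WBGene00014291) had a signal of 62.1 at chrV:11980030-11980253, with 34.9 in replicate 1 and 33.1 in replicate 2, and its summit lay 24 bp into the gene. The replicates placed it 26 bp before the start and 74 bp into the gene. The same peak lay 419 bp from the start of snr-4, an Sm protein gene on the opposite strand. The U2 gene Y57G11C.35 (WBGene00014593), in Y57G11C.5, had a signal of 62.6 at chrIV:14764624-14764847, with 35.4 in replicate 1 and 30.2 in replicate 2. Its summit lay 112 bp past the 3′ end and 89 bp from the start of the ncRNA gene WBGene00201151, so of the 11 genes it was the farthest from its summit. Both genes stood in neither replicate's own list. Among genes of these kinds that were not bound, T11F9.15 had the highest signal for U4, 35.5, and F56H6.15 for U2, 49.8 at 476 bp from its start.

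U5 and SmY genes were not bound in any of the 4 thresholded lists. The U5 genes nearest to the threshold were F32B5.9, with a score of 807 and a signal of 43.7 at 37 bp into the gene, and Y69A2AR.36, with the highest signal, 48.7, at a score of 465. F32B5.9 had 29.9 in replicate 1 and 27.2 in replicate 2. The median of the highest signal near the 12 U5 genes was 34.9. The highest among SmY genes was smy-1, with 47.2 and a score of 583 at 91 bp before its start, and the median over 7 SmY genes was 14.0. Of the genes of no assigned kind, M163.13 had the highest signal, 51.9 with a score of 661 at 13 bp into the gene, and was not bound.

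**Figure D3:**
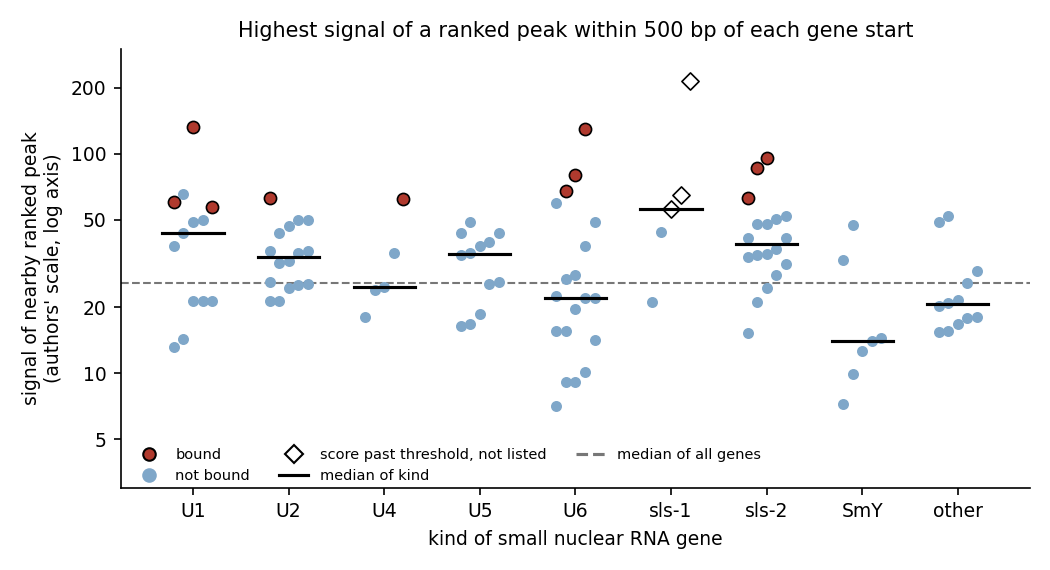
Highest signal of a ranked peak within 500 bp of the start (vertical axis, log scale, authors' scale) for each of the 107 background genes, with bound genes in red, the median of each kind as a bar and the median of all background genes, 25.9, as a dashed line. The medians of U1, U2, U5, sls-1 and sls-2 lie above the dashed line and those of U4, U6, SmY and the genes of no assigned kind below it, and the 3 open diamonds are sls-1 genes past the threshold score.

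Across all 107 snRNA genes the median of the highest ranked signal was 31.9, beside 25.9 for all background genes, 32.4 for snoRNA genes and 62.2 for tRNA genes. By kind it was 43.5 for U1, 38.98 for sls-2, 33.8 for U2, 24.7 for U4 and 22.1 for U6. U6 genes thus paired a low median with some of the highest single values, from 7.05 to 130. The 11 bound genes had signals from 57.1 to 133 with a median of 67.7, where the median of the 813 peaks was 75.6, and 5 of the 11 lay above it. The same 5 had a score of 1000, and the lowest score among the bound genes was 838, for F08H9.10.

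The summits at the bound genes stood at no single place. They lay before the gene in 3, inside it in 5 and past the 3′ end in 3, at a median of 24 bp after the start and a median distance of 43 bp either way. Of the 11, 6 lay within 50 bp of the start. Among background genes, the summit of highest signal lay within 50 bp for 8 of 19 U6 genes (42.1%), 4 of 12 U5 genes (33.3%) and 4 of 13 U1 genes (30.8%). It did so for 3 of 12 genes of no assigned kind (25%), 1 of 5 U4 (20%), 3 of 16 U2 (18.75%) and 3 of 18 sls-2 genes (16.7%). No sls-1 or SmY gene had it that close. The share was 24.3% for all snRNA genes, 14.0% for all background genes and 61.1% for tRNA genes.

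**Figure D4:**
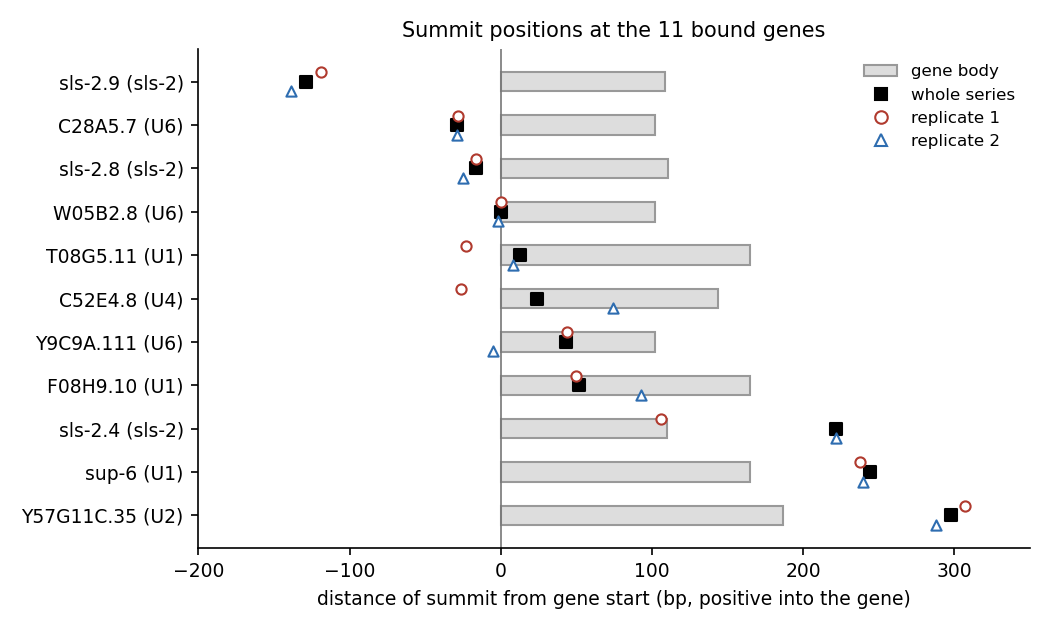
Distance of the summit from the gene start in bp (horizontal axis, positive in the direction of transcription) at the 11 bound genes in the whole-series list (squares) and in replicates 1 (circles) and 2 (triangles), with the gene body as a bar. The marks of the lists lie close together for W05B2.8, C28A5.7, sls-2.8 and sup-6, and sls-2.4 has replicate 1 inside the gene and replicate 2 past its end.

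Other genes stood close to most of these peaks. Of the 11 bound genes, the snRNA start was the nearest gene start to the summit in 7, and the exceptions were sls-2.9, sls-2.4, Y57G11C.35 and F08H9.10. A gene annotated as ncRNA had a start within 500 bp of the summit in 9, and a protein-coding gene in 3. At sup-6 these were F58G1.11 and F58G1.12, at 261 and 405 bp, at C28A5.7 it was C28A5.9 at 134 bp, and at T08G5.11 it was T08G5.18 at 161 bp. M01E5.8, Y75B8A.49, C52E4.14 and F08H9.14 lay 89, 123, 183 and 114 bp from the summits of sls-2.9, sls-2.8, C52E4.8 and F08H9.10. All of these are annotated as ncRNA. Counts of such neighbours over all 813 summits are not given here. Close neighbours are therefore not shown to be particular to the peaks at snRNA genes. The 101 bp around each of the 11 summits occur once in the genome as a whole window. At the bound U6 genes and at C52E4.8 the window takes in bases of a gene sequence that other genes share. The part of mapping at these peaks was not tested.

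The letters of an internal promoter element of tRNA genes were not found at these summits. GTTCNANNC, the letters of the B box, was chosen after the data were seen and sought on both strands in the 101 bp around the summit. It stood at 0 of the 11 bound snRNA genes and at 156 of 249 summits within 500 bp of a tRNA gene start (62.7%). It also stood at 223 of all 813 summits (27.4%) and at 4.17% of all ranked summits. At a rate of 4.17%, 11 summits would often hold none, so the 0 does not set these genes apart from ranked summits in general. The 11 summits belong to the 813, where the share was 27.4%, and the difference from that share was not tested. At sls-2.9, whose summit lies 3 bp from the start of a tRNA gene, the letters were not found either. The 101 bp centred there need not cover the whole of that tRNA gene, so nothing is concluded from this absence.

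The replicates differed in how many of these genes passed their own thresholds. In replicate 1, 8 of the 82 snRNA genes near a ranked summit were bound, where 2.82% of all genes were. In replicate 2, 2 of 83 were bound, where 1.53% of all genes were. Both genes of replicate 2, sup-6 and W05B2.8, were also bound in replicate 1. Of the 11 bound genes, 5 were in the list of replicate 1 and 6 in neither replicate's list, and 8 stood in the other whole-series list, which bound 12 snRNA genes, where 3.77% of all genes were bound.

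Each of the 11 had a ranked peak in both replicates within 500 bp, and in 10 the summits of the replicates lay within 100 bp of each other. Replicate 1 signals ran from 29.2 to 77.2 and replicate 2 signals from 28.9 to 61.5. Across the 65 snRNA genes with a ranked summit in both replicates the Spearman correlation of their highest signals was 0.663, and across the 34 whose summits lay within 100 bp of each other it was 0.750. These points include genes that share a peak or a sequence, and the whole-series scores that chose the bound genes rest on agreement of the replicates.

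The sls-1 genes, which make SL1, lie in a tandem repeat with 5S rRNA genes. The 12 genes span chrV:17118154-17132107, about 13.954 kb, with 12 5S rRNA genes inside this span, and the starts lay a median of 976 bp apart. In this span fell 8 ranked summits, 3 of them at or above the threshold score of 830 and 0 in the thresholded list. Over the whole genome 983 ranked peaks reached this score, and 170 of them, these 3 included, are not in the thresholded list. No source used here says why.

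The highest of the sls-1 peaks, at chrV:17122195-17122257, had a signal of 215 and a score of 1000, with 109 in replicate 1 and 104 in replicate 2, both also at 1000. It ranked 55 of 116935 by signal, above every bound snRNA gene. Its summit lay 448 bp before the start of sls-1.11, but nearer, at 271 bp, to the start of the 5S rRNA gene rrn-4.6, whose end it passed by 153 bp. sls-1.5 had a peak of 65.1 at a score of 890, 320 bp before its start, with 25.6 and 40.8 in replicates 1 and 2. sls-1.4 had a peak of 56.0 at a score of 906, 298 bp before its start, with 32.4 and 29.8. That summit lay nearer to the 5S rRNA gene rrn-4.12, at 125 bp from its start and 7 bp past its end. The peaks at sls-1.11 and sls-1.4 thus cannot be assigned to the sls-1 genes alone. With these peaks put back, a step chosen after the data were seen, 14 snRNA genes would be bound, the 3 sls-1 genes with the 11. The share of all genes bound after this step is not given here, so the 14 cannot be set beside a background share. The ranked summit nearest to any sls-1 start lay 209 bp from it. All the ranked summits of the whole-series list here lay where the 101 bp occur once in the genome, although the repeat units themselves do not.

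**Figure D5:**
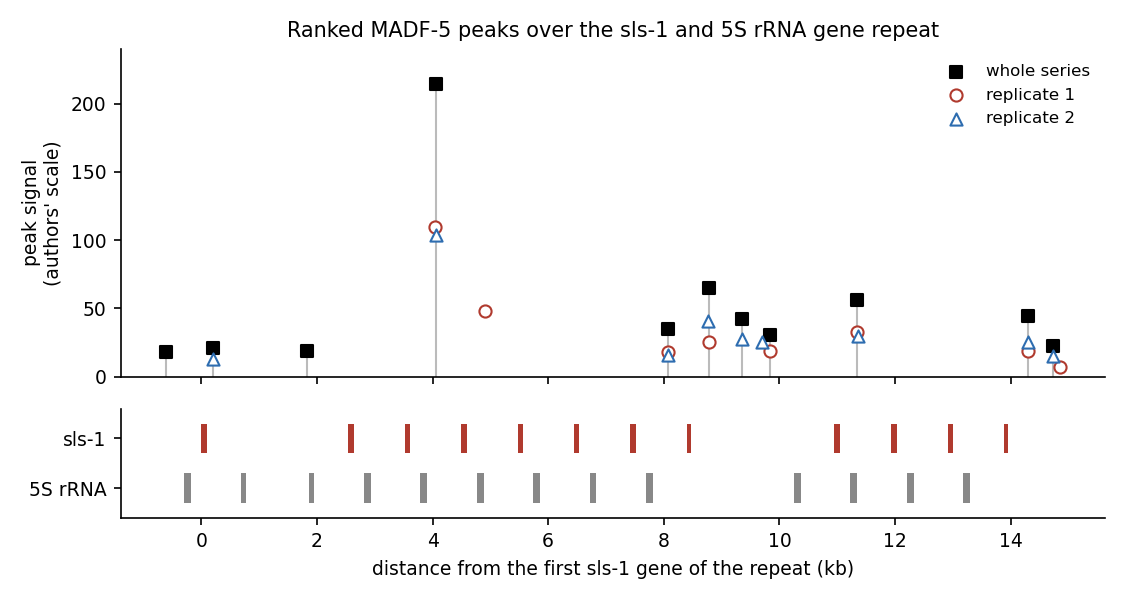
Signal (vertical axis, authors' scale) of ranked peaks of the whole-series list and both replicates along the sls-1 repeat (horizontal axis, kb from the first sls-1 gene), above the positions of the sls-1 and 5S rRNA genes. A single peak of 215, with 109 and 104 in the replicates, stands above the rest, which are at 65.1 or less.

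The protein genes of the same pathway were read beside the RNA genes, from a list of 71 genes for snRNP proteins, trans-splicing, snRNA transcription, 3′ end processing and assembly. Of these, 66 were found in the annotation by symbol and 54 lay in the background, and 5 were bound (9.26%, beside 3.82% of all genes and 1.83% of the 15722 protein-coding genes in the background). They were 2 of 12 Sm and Lsm genes, 2 of 14 snRNP protein genes, 1 of 13 genes of 3′ end processing and assembly, 0 of 12 snRNA transcription genes and 0 of 3 trans-splicing genes. snr-1, an Sm protein gene, had a signal of 81.5 with a summit 425 bp before its start. snr-4 shared the peak of the U4 gene C52E4.8. snrp-200, which in yeast and humans is a helicase of the U5 particle, had 58.6 at 66 bp after its start, and ddx-23, in those species another helicase of that particle, had 62.6 at 144 bp before its start. ints-6, which encodes a subunit of the Integrator complex that cuts the 3′ ends of snRNAs, had 62.7 at 404 bp before its start. None of the 5 was in the own list of replicate 1, and ddx-23 was in that of replicate 2.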

How the data were processed

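ChIP-seq of MADF-5 was deposited as peak lists on ce11 for 2 biological replicates of 1 group. The authors' deposited score is the IDR score of a peak, at most 1000, and the deposited signal is the value their caller gave it, on a scale not stated. The name of the aligner or caller is not given in the sources used here. The thresholded lists had lowest scores of 830, or 831 for replicate 1.

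Gene starts came from Ensembl release 115 of WBcel235, and gene names and sequence from RefSeq. A summit is the peak start plus the deposited offset. Python 3.11.15, scipy 1.17.1 and edlib 1.3.9 (identities) were used, and counting was tested on simulated lists. With 1 group and genes that are not replicates, no test was run, and shares have Wilson 95% intervals. Signal for a gene is the highest of any ranked peak within 500 bp, and nearness to the threshold was read from the highest score.

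The members and lists were chosen with earlier results of these data known. Named genes are all bound members, the 10 others of highest score, the one of highest signal per kind, neighbours within 500 bp and bound pathway genes. Alternatives covered windows of 250 and 1000 bp, the other whole-series list, each replicate, the 50% of peaks of highest signal, overlap with the gene body, the nearest start only, tRNA peaks left out and left-out peaks put back.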

Additional observations from a re-analysis of the deposited data

Results flagged for a closer look

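Signal lay in ranked peaks that no thresholded list contains. The peak near sls-1.11 had a signal of 215, that near sls-1.5 had 65.1 and that near sls-1.4 had 56.0, each with a score at or above the lowest score of the thresholded list. They were picked out because they lie outside the lists that the comparisons use. Of these peaks, those near sls-1.11 and sls-1.4 lie nearer to the start of a 5S rRNA gene, at 271 and 125 bp, than to that of the sls-1 gene. The control library was not analysed here, so the background at these places is not known.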

How the results depend on the processing

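The 11 bound snRNA genes became 10 with a window of 250 bp, 11 with 1000 bp, 12 in the other whole-series list, 8 where the peak had to overlap the gene, 10 without peaks at tRNA genes and 14 with left-out peaks put back, which was chosen after seeing the data. They became 5 with the 50% of peaks of highest signal and 7 with each summit given to the nearest start only. With one replicate left out they were 2 to 8, 2 of them without replicate 1. The share of all genes bound is not given for windows of 250 and 1000 bp, gene overlap or the nearest start only. Nor is it given for the 50% of highest signal, tRNA peaks left out or peaks put back. Counts under those settings, the pathway counts below included, thus cannot be set beside a background share. Whether snRNA genes stayed above all genes there was not tested. By kind, U2 fell from 1 to 0 at 250 bp, in the other list, with the 50% of highest signal, with gene overlap, with the nearest start only and without either replicate. With the 50% of highest signal U1 had 1 and U4 had 0. Without a replicate U1 had 1 and U4 had 0 in both cases, U6 had 1 to 3 and sls-2 had 0 to 4. With gene overlap and with the nearest start only sls-2 had 1 each. With peaks put back sls-1 had 3. The 5 pathway genes became 2 at 250 bp, 1 with the 50% of highest signal, 2 with gene overlap, 2 with the nearest start only and 0 to 1 without a replicate. The median summit position of 24 bp ranged from -10.5 to 119 bp. The latter, without replicate 1, is the midpoint of only 2 genes, sup-6 at 240 bp and W05B2.8 at -2 bp. A window of 1000 bp to a tRNA gene start took in 3 genes in place of 1. The cause of these shifts was not tested, except that fewer peaks can bind fewer genes. No paired analysis was possible because there is 1 group. With 2 replicates and an unknown depth, a gene called in one list and not in another is not shown to differ between them.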
